A study of Mus musculus with 12 samples.

Results

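The adhesion receptors of the Adgrb and Adgrl subfamilies were described together with proteins they bind, in mouse lung tumors and in normal mouse lung. The genes were chosen by name: the receptors Adgrb1, Adgrb2, Adgrb3, Adgrl1, Adgrl2 and Adgrl3, and the partners Tenm2, Tenm3, Flrt3 and C1ql3. Of these 10 genes, 9 were among the 30399 genes of the table, and Flrt3 was not analysed here. Adgrb3 had been noted among the largest differences between tumor and normal lung, so that comparison is given for the chosen genes as a description, without a test.

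The series holds poly-A RNA sequencing of 12 mouse samples, 5 labelled normal lung and 7 labelled tumor, from a study that made lung cancer models by nonviral CRISPR/Cas9 mutagenesis. CRISPR/Cas9 is a nuclease system that cuts DNA at a chosen site, where faulty repair can disable a gene. The labels give the tissue only, with no strain, age, sex, targeted gene or treatment time, so a shared background of the groups is not given in the sources used here. Titles of tumors 1 and 7 hold the Spanish word for trachea and those of tumors 3 to 6 the word for lung, while tumor 2 has neither. The titles also carry a number, 153 and 156 in tumors 1 and 2, 159 in tumors 3 and 4, and 201 in tumors 5, 6 and 7. What the number stands for is not stated. The p-values below set each difference against the spread between these samples and treat the samples as independent. If same-numbered tumors came from 1 animal, the 7 tumors would not be independent, and the p-values could be too small.

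Adhesion receptors are G protein-coupled receptors with a long extracellular part, which is usually cleaved from the membrane part by the receptor itself. The Adgrb receptors, first named brain-specific angiogenesis inhibitors, carry thrombospondin repeats and act at synapses; Adgrb1 also serves in the uptake of dying cells, and Adgrb3 binds secreted C1q-like proteins such as C1ql1 and C1ql3. The Adgrl receptors, or latrophilins, were found as receptors of the spider toxin alpha-latrotoxin and bind teneurins (Tenm) and Flrt proteins across cell contacts. Pulmonary neuroendocrine cells, a rare cell type of the airway lining, share many synaptic genes with neurons.

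The tissue labels were compared with marker genes first. Values are read counts divided by a factor for each library (normalized counts), and libraries held 11126432 to 17032234 reads (normal lung) or 13093843 to 24217633 reads (tumor). Across all genes, 14554 of 23674 tested (61.5%) passed a limma adjusted p under 0.05, 31.4% higher and 30.1% lower in tumor. All 10 neuroendocrine markers were higher in tumor, with a summed level of 193.5 to 316 among normal lungs against 33942 to 137319 among tumors, of which tumor 7 was lowest. Among 7 neuronal markers 6 were higher (summed level 956 to 1454 against 15024 to 29699). All 13 lung epithelial markers were lower (358652 to 580133 against 1522 to 5770), with Sftpa1, Sftpd and Cldn18 at 0 in at least 1 tumor. All 10 endothelial markers were lower (80251 to 99588 against 2987 to 8693). All 9 leukocyte markers were lower (85789 to 165682 against 389.6 to 14660), with Cd3e and Nkg7 among those at 0 in at least 1 tumor. Of 7 mesenchymal markers 2 were lower (10901 to 26218 against 3445 to 31188), and of 8 glial markers 2 were higher and 1 lower (2210.5 to 2959 against 2159 to 5741). Of 7 cardiac muscle markers 1 was higher. The summed cardiac level was 35398 in tumor 7 and at most 4628 in any other sample. Genes of the Y chromosome were at a mean log2 level of 9.14 to 9.43 in 4 normal lungs and tumor 1, and of 0 to 1.48 in the other 7 samples.

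The 3 Adgrb receptors were close to undetected in normal lung and abundant in every tumor. Adgrb3 (ENSMUSG00000033569), the synaptic receptor of C1q-like proteins, had normalized counts of 1.29, 0, 3.23, 0 and 1.15 across normal lungs 1 to 5, which are 0 to 2 reads each. In tumors 1 to 7 it had 2898, 3448, 9091, 13261, 12909.5, 16798 and 4597. All normal lungs were thus under the limit of 3 reads, which is a normalized count of up to 4.85 there, and all tumors lay far above it. Against that limit the tumor mean of 9000.2 ± 5503 (SD, n = 7) was at least 1857.5-fold higher, and the lowest tumor, tumor 1, at least 598-fold higher.

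Adgrb1 (ENSMUSG00000034730), the receptor that also acts in engulfment, measured 6.45, 4.30, 11.3, 5.64 and 11.5 normalized counts across normal lungs 1 to 5. In tumors 1 to 7 the values were 7507, 5214, 6485, 9076, 4088, 6749 and 2952. The groups did not overlap, and the mean was 7.84 ± 3.34 (SD, n = 5) in normal lung and 6010.0 ± 2085 (SD, n = 7) in tumors, a difference of 9.41 (SE 0.30) on the scale of log2(normalized count + 1). Adgrb2 (ENSMUSG00000028782), a further receptor of neurons, had 28.4, 9.68, 22.6, 2.82 and 28.7 in normal lungs and 6778, 2404, 7156, 8322, 4888, 7983 and 3500.0 in tumors. Its log2 difference was 8.46 (SE 0.50), again without overlap. Tumor 7 had the lowest Adgrb1 value and tumor 2 the lowest Adgrb2 value, while Adgrb3 was lowest in tumor 1.

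**Figure D1:**
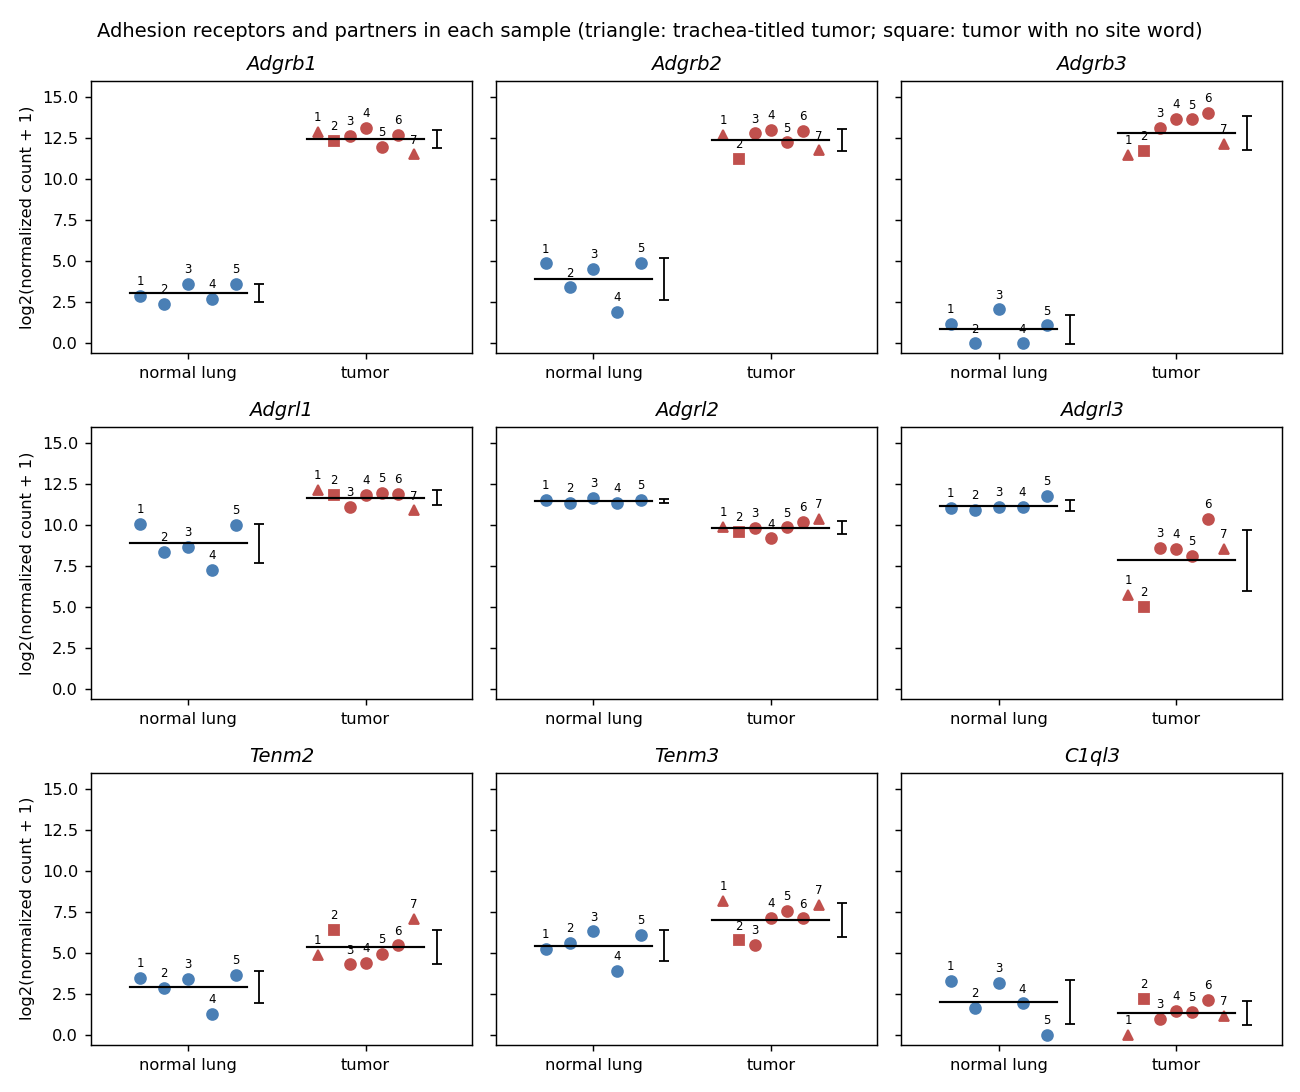
Each panel plots log2(normalized count + 1) of 1 gene in 5 normal lungs (blue) and 7 tumors (red; triangles are trachea-titled, the square has no site word), with the sample number above each point, the group mean as a line and the SD as a bar beside it. Adgrb1, Adgrb2, Adgrb3, Adgrl1 and Tenm2 lie higher in all 7 tumors than in all 5 normal lungs, Adgrl2 and Adgrl3 lie lower in all 7, and Tenm3 and C1ql3 overlap.

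Levels of different genes were compared per kilobase of annotated exon. In tumors, Adgrb2 and Adgrb1 had 904 ± 354 and 832 ± 289 normalized counts per kb (SD, n = 7), and Adgrb3 had 485 ± 297. Within each tumor, Adgrb2 was above Adgrb1 except in tumor 2 (371 against 722), and only slightly in tumors 1 and 4. A difference between Adgrb1 and Adgrb2 was not tested. Although Adgrb3 had the highest mean count of the 3, its exons sum to 18.6 kb against 7.22 kb for Adgrb1 and 6.49 kb for Adgrb2. Adgrb3 made up 6.97% of the Adgrb level per kb in tumor 1, 14.5% in tumor 2, 19.7% in tumor 3, 22.0% in tumor 4, 34.5% in tumor 5, 29.5% in tumor 6 and 20.7% in tumor 7. The share of Adgrb2 varied less, from 29.0% to 46.6%, and that of Adgrb1 from 28.1% to 56.5%. The mix of the 3 receptors thus differed between tumors, with Adgrb3 the smallest share in 6 of 7 tumors; in tumor 5 it exceeded Adgrb1 and was below Adgrb2.

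Because the receptors Adgrb2, Adgrb3 and Adgrl1 were higher in every tumor, the stretches just before their start sites are shown, as listed by RefSeq on GRCm38.p6. The table was made with GRCm39 per the submitters' processing notes, so these coordinates belong to another build than the counts. Of the 10 genes 9 had a promoter entry. Adgrb1, also higher in every tumor, had none and is not shown. The 3 shown are receptors whose 250 bases before the start contain no annotated exon. Capitals mark the GC box, GGGCGG or its complement CCGCCC:
Adgrb2 (chr4:129984620-129984869, plus strand): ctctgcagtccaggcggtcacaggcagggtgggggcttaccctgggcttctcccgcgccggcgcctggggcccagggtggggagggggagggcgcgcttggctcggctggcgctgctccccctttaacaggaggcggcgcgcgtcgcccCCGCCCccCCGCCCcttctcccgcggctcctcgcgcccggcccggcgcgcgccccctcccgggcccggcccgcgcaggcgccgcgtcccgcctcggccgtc
Adgrb3 (chr1:25829708-25829957, minus strand): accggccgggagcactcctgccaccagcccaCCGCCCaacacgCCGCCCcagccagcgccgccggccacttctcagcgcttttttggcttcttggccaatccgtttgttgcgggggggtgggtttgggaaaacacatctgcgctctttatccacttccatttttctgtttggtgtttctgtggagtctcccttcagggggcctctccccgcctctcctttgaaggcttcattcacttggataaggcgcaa
Adgrl1 (chr8:83899848-83900097, plus strand): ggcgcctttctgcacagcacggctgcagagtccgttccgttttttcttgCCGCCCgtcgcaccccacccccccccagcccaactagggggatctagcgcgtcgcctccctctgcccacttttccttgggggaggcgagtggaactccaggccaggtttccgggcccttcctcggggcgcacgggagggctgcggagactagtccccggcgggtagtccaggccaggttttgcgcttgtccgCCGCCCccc
Each of the 3 stretches held the GC box 2 times. Tenm2, which was also higher in every tumor and has no annotated exon in its stretch, held none, with a GC content of 37.2% and 2 CpG. GC content was 81.6% for Adgrb2, 59.2% for Adgrb3 and 68.8% for Adgrl1, against a median of 52.4% over 32851 promoters, and the CpG counts were 35, 14 and 21 against a median of 6. On both strands, GGGCGG occurred in 32.7% of these promoters. None of the 3 stretches held the E-box CAGCTG (13% of promoters), TATAAA (12.4%), or the fragments TCAGCACC (1.32%) and GGACAGCG (0.992%), which are parts of the element bound by the neuronal repressor REST. GC boxes were not confined to genes higher in tumor. Adgrl3, lower in every tumor, has several listed starts, whose stretches held 1, 2 and 1, with 36, 18 and 18 CpG. The first 2 of these Adgrl3 stretches overlap, and the GC box of the first is counted in both. C1ql3, whose groups overlapped, held 2, with a GC content of 66.4% and 23 CpG. Adgrl2 (lower) and Tenm3 (overlapping) held none. Annotated exons lie in all these further stretches. A link between the GC box and the tumor difference was not tested. A match is a description of the letters only, and no binding was measured.

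Among the latrophilins, Adgrl1 was higher in tumors while Adgrl2 and Adgrl3 were lower. Adgrl1 (ENSMUSG00000013033), a latrophilin of synapses, was at 1085, 329, 407, 154 and 1052 normalized counts across normal lungs 1 to 5. Tumors 1 to 7 had 4613, 3754, 2258, 3631, 4039, 3838 and 1922. Normal lungs 1 and 5 were high, but still below tumor 7, the lowest tumor. The log2 difference was 2.80 (SE 0.43).

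Adgrl2 (ENSMUSG00000028184), a latrophilin found also outside the nervous system, measured 2986, 2658, 3220.5, 2620 and 2974 normalized counts across the normal lungs. In tumors it had 945, 761, 912, 586, 936, 1194 and 1320.0, so that every tumor was below every normal lung and the tumor mean was 3.04-fold lower. The difference on the log2 scale was -1.64 (SE 0.18). Adgrl2 had the smallest spread of the 9 genes in both groups, with an SD of 0.125 log2 units in normal lung and 0.390 in tumors. Endothelial and lung epithelial markers moved the same way (summed levels above), and their part in this difference was not tested. In bulk tissue, fewer cells of a type and less RNA per cell cannot be told apart.

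Adgrl3 (ENSMUSG00000037605), which pairs with Flrt3 and teneurins at synapses, measured 2156, 1951, 2203, 2188 and 3535 normalized counts across normal lungs 1 to 5. In tumors 1 to 7 it had 53.2, 31.0, 386, 382, 282, 1352 and 382. The groups did not overlap, and the log2 difference was -3.33 (SE 0.74), or -2.47 in edgeR, -2.52 in DESeq2, -4.10 with same-numbered tumors averaged and -4.05 with Y-linked expression as a covariate. Tumors 1 and 2 were low and tumor 6 high, a span of 43.6-fold between the lowest and the highest tumor. The SD of 1.86 log2 units among tumors was the largest of the 9 genes and above the 90th percentile of all tested genes, which was 1.55 (median 0.63).

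Per kilobase, the summed latrophilin level was similar in range in the groups, 326 to 531 normalized counts per kb in normal lungs and 338 to 607 in tumors, but its make-up differed. Adgrl1 made up 5.50% to 27.6% in normal lungs and 66.2% to 88.8% in tumors. The share of Adgrl2 was 39.4% to 56.9% in normal lungs and 8.49% to 27.5% in tumors, and that of Adgrl3 was 26.5% to 37.9% and 0.354% to 12.5%. In none of the 3 shares did the groups overlap. The order in normal lungs, Adgrl2 first, gave way to Adgrl1 first in all 7 tumors.

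**Figure D2:**
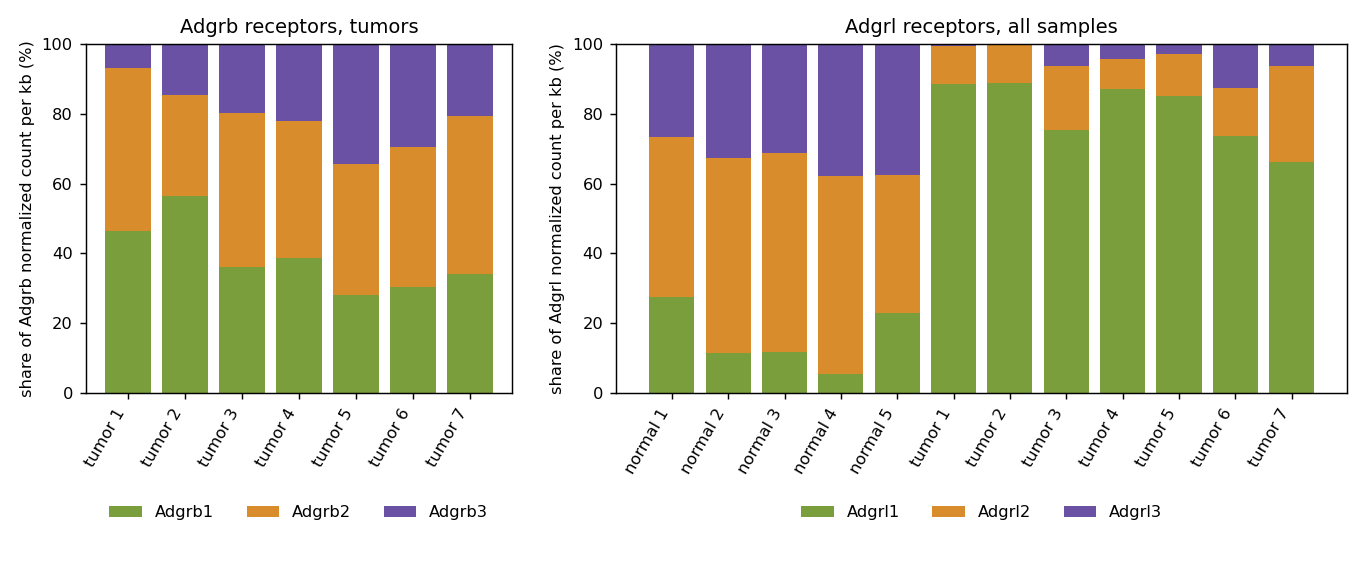
Stacked bars give each receptor's share in percent of its subfamily's normalized counts per kb of exon, for the Adgrb receptors in 7 tumors (left) and the Adgrl receptors in 5 normal lungs and 7 tumors (right). Adgrl1 takes 66.2% or more in every tumor and 27.6% or less in every normal lung, and Adgrb3 ranges from 6.97% in tumor 1 to 34.5% in tumor 5.

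Per kb, the partners had tumor means of 4.49 ± 3.79 (Tenm2), 15.4 ± 8.94 (Tenm3) and 0.712 ± 0.504 (C1ql3) normalized counts (SD, n = 7), beside 23.1 ± 25.0 for Adgrl3, the receptor with the lowest tumor mean. Tenm2 (ENSMUSG00000049336), a teneurin and ligand of latrophilins, measured 10.3, 6.45, 9.69, 1.41 and 11.5 normalized counts across the normal lungs and 28.5, 84.6, 18.8, 19.8, 29.9, 43.1 and 135.8 in tumors. All tumors were above all normal lungs, with tumors 7 and 2 highest, and the log2 difference was 2.41 (SE 0.57). The normal lung values of Tenm2 rest on 1 to 10 reads each. Tenm3 (ENSMUSG00000031561), a teneurin that guides wiring in the hippocampus and visual system, had 37.4, 48.4, 79.1, 14.1 and 67.8 in normal lungs and 291, 53.6, 44.6, 142, 192, 137.5 and 242 in tumors. Tumors 2 and 3 lay within the normal lung range, so the groups overlapped (log2 difference 1.59, SE 0.53). C1ql3 (ENSMUSG00000049630), a secreted Adgrb3 ligand, rested on 0 to 7 reads in normal lungs and 0 to 5 in tumors. Its means were 4.42 ± 3.93 (SD, n = 5) and 1.80 ± 1.28 (SD, n = 7) normalized counts. The groups overlapped, and the log2 difference of -0.68 (SE 0.57) rests on few reads and was not tested.

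In all, 7 of the 9 genes had groups that did not overlap, 5 with the tumors above and 2 with the tumors below, where 38.4% of all 23674 tested genes had such groups (20.1% above and 18.4% below). The median log2 difference of the 9 was 2.41, against 0.04 over all tested genes. Since this comparison was used in choosing the genes, nothing is read from that count or that median. Use of the strand in counting is not given in the sources used here, and the exons of Adgrl1, Adgrl2, Tenm3 and C1ql3 overlap those of a gene on the opposite strand, which makes their counts uncertain.

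Differences among the tumors did not enter the choice of the genes. The 2 trachea-titled tumors were compared with the 4 lung-titled ones by limma over 23282 genes. No gene (0.0%) passed an adjusted p under 0.05, 2086 (8.96%) had an unadjusted p under 0.05, and edgeR on whole reads of 5 tumors also called 0, with 1407 genes at an unadjusted p under 0.05. DESeq2 on the same reads called 300. Adgrb3 was lower in the trachea-titled tumors, at 2898 and 4597 normalized counts, than in the lung-titled ones, at 9091 to 16798. Its log2 difference of -1.80 (SE 0.31, limma unadjusted p = 6.05e-04, adjusted p = 0.317) did not pass the threshold over all genes. It passed in DESeq2 (-1.85, adjusted p = 0.000398) and in limma without tumor 7 (-2.13, adjusted p = 0.0484, with tumor 1 then the lone trachea-titled sample and assumed to vary like the others). Over all alternatives run, the adjusted p of Adgrb3 ran from 0.000398 to 0.751. Tumor 2, whose title names no site, had 3448, within the span of the trachea-titled tumors. With the title number as a block, an alternative chosen after seeing the data that rests on number 201 alone, the difference was -1.68 (limma adjusted p = 0.209). Within number 201, the trachea-titled tumor had 4597 and the lung-titled ones 12909.5 and 16798.

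The other 8 genes had limma adjusted p values of 0.597 to 0.903 in the same comparison. Adgrl3 had a log2 difference of -1.76 (SE 0.88), with the trachea-titled tumors at 53.2 and 382 and the lung-titled ones at 282 to 1352, which overlap; it was -0.35 without tumor 1 and -3.17 without tumor 7. Tenm2 had 1.21 (SE 0.73), or 2.32 without tumor 1 and 0.11 without tumor 7. Tenm3 was likewise higher in the trachea-titled tumors, 291 and 242 against 44.6 to 192, without overlap (1.21, SE 0.59). Groups that did not overlap were found in 18.2% of all genes in this comparison. Summed neuroendocrine markers were 117814 in tumor 1 and 33942 in tumor 7, where the 4 lung-titled tumors had 134044, 137319, 86773 and 73889.7. Tumor 1, the lowest in Adgrb3, thus lay within the lung-titled range of these markers and tumor 7 below it, and their part in the result was not tested.

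The median SD of the 9 genes among tumors was 0.743 log2 units, near the 0.63 of all tested genes. Genes whose values followed Adgrb3 most closely were ranked by Pearson correlation of log2(normalized count + 1) among 16384 genes. Over all 12 samples these were Dgki (r = 0.997), Pnmal1 (0.997), Pld5 (0.997), Tub (0.997) and Cdh24 (0.996), where the gap between normal lung and tumor dominates. Over the 7 tumors alone they were Gm12339 (0.992), Nav1 (0.991), Gm45708 (0.990), Myt1l (0.989) and Ces5a (0.986). Myt1l, a neuronal transcription factor, had 1278, 1412, 4216, 5031, 5696, 6039 and 2277 normalized counts in tumors 1 to 7, low in the same 3 tumors as Adgrb3. These correlations describe 7 and 12 libraries, some of which share a title number.

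**Figure D3:**
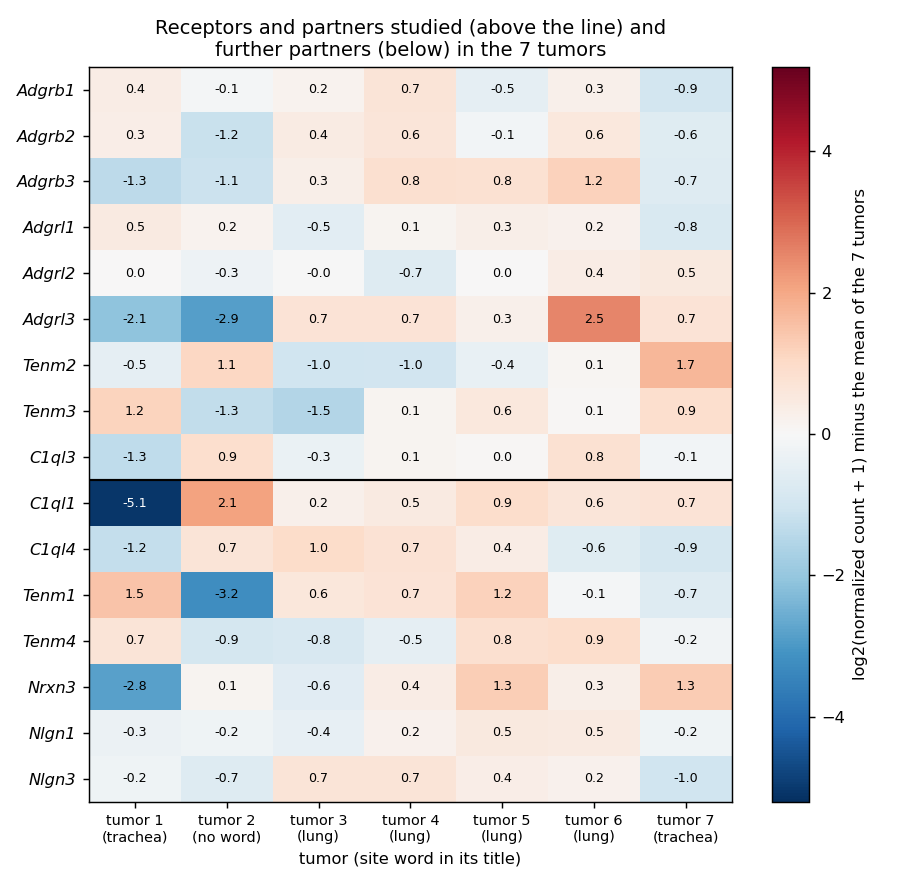
Each cell gives log2(normalized count + 1) of a gene in 1 tumor minus its mean over the 7 tumors, with the chosen genes above the line and further partners below it. Adgrb3 lies below its mean in tumors 1, 2 and 7, Adgrl3 lies lowest in tumors 1 and 2, and C1ql1 lies far below its mean in tumor 1 (-5.05).

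Partners on the latrophilin side beyond the chosen genes were mostly higher in tumor. The list held the remaining teneurins and Flrt proteins, presynaptic adhesion molecules that bind latrophilins, the Unc5 receptors, which bind Flrt proteins, and Cntn6. Of 11 tested genes 7 were higher and 2 lower by limma, and 2 did not pass, against 31.4% and 30.1% of all genes; Flrt1 was not analysed here. The 2 that did not pass were Cntn6 (2.04, limma adjusted p = 0.0693) and Unc5b (-0.46, limma adjusted p = 0.145). The median log2 difference was 2.94, against 0.04 over all genes. Tenm1 (ENSMUSG00000016150), a further teneurin, was at or under 1 read in every normal lung and at 487, 17.9, 263, 282, 404.5, 159.7 and 110.2 in tumors 1 to 7. Its tumor mean was at least 50.8-fold above the limit of 3 reads (limma adjusted p = 2.11e-06), with tumor 2 lowest. The normal lung mean of Tenm1 was 0.605. It reached the mean of 1 needed for testing only through the tumors, whose values its p uses again. Among the list genes given with values, exons of Tenm1, Tenm4, Unc5c, Nlgn1, Rac1, Adgrg2, Adgrg6 and Adgre5 overlap those of a gene on the opposite strand and exons of Nlgn3 those of a gene on the same strand, so their counts are uncertain. Tenm4 rose from 45.6 ± 18.6 (SD, n = 5) to 1342 ± 696 (SD, n = 7) normalized counts, a log2 difference of 4.77 (SE 0.38, limma adjusted p = 2.13e-07).

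Nrxn3, a presynaptic adhesion molecule, rose by 4.90 (SE 0.59, limma adjusted p = 9.33e-06), from 52.6 ± 17.1 (SD, n = 5) to 2044 ± 1328 (SD, n = 7) normalized counts, with tumor 1 lowest at 213. Unc5c, a netrin receptor, was lower in tumor (-1.68, SE 0.62, limma adjusted p = 0.0297), from 454 ± 66.5 to 191 ± 115.8, and did not pass when normal lung 1, 2 or 5 was left out, under equal column totals, with Y-linked expression as a covariate, or in edgeR and DESeq2 (adjusted p from 0.0508 to 0.0999). The other gene called lower, Flrt2, reached 486 in tumor 7, above all normal lungs (223 to 429.5), and 34.2 to 174 in the other tumors (-1.82, limma adjusted p = 0.00925). It did not pass in edgeR (-1.04, adjusted p = 0.148) or DESeq2 (-1.12, adjusted p = 0.0887).

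On the Adgrb side the list joined the other C1q-like ligands, the Nogo receptors (Rtn4r and relatives), the neuroligins, surface partners such as Cd36 and integrins, and the inner chain of Elmo, Dock and Rac proteins through which Adgrb1 drives engulfment. Of 25 genes 9 were higher and 10 lower by limma and 6 did not pass, near the 31.4% and 30.1% of all genes, with a median log2 difference of 0.01. Of the engulfment chain, Elmo1 and Elmo2 had log2 differences of 0.04 and 0.01 that did not pass (limma adjusted p = 0.925 and 0.950). Elmo3 (-1.70), Dock1 and Rac1 (-0.84) were lower. Dock5 was called lower too (-2.08, SE 0.78, limma adjusted p = 0.0331), but its groups overlapped. Its value in tumor 7 was 2057, above all normal lungs (717 to 848). The Elmo genes, Dock5, Rac1, C1ql2, Flrt2, Cntn6 and Unc5b were picked for mention after their values were seen. C1ql1, an Adgrb3 ligand, was at or under 1 read in every normal lung and had 3.80, 669.5, 188, 217, 302.5, 245 and 263 in tumors, a mean at least 55.7-fold above the 3-read limit (limma adjusted p = 3.77e-05). Tumor 1, which had the lowest Adgrb3, was itself under that limit as set in normal lung. C1ql4 was at or under 1 read in normal lungs and at 44.9 to 209 in tumors, at least 25.5-fold higher in the mean (limma adjusted p = 8.64e-08). Both C1ql1 and C1ql4 had normal lung means under 1 (0.538 and 0.323). They reached the mean of 1 needed for testing only through their tumor values, which their p-values use again. C1ql2 did not pass (-1.22, SE 0.845, limma adjusted p = 0.224).

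Nlgn1, a postsynaptic adhesion molecule, rose from 34.9 ± 18.1 (SD, n = 5) to 3934 ± 1095 (SD, n = 7) normalized counts, by 6.87 on the log2 scale (SE 0.295, limma adjusted p = 9.97e-10). Nlgn3 rose by 5.35 (SE 0.38), from 11.8 ± 5.96 to 514 ± 208.5. Cd36, a scavenger receptor of endothelium and macrophages, was lower (-5.31, SE 0.92, limma adjusted p = 2.25e-04), at 11254 ± 1066 in normal lung and 641 ± 896 in tumors, highest in tumor 7 at 2629.7. Its log2 difference was -4.57 without tumor 3, the lowest tumor at 11.9. The integrin genes Itgav (-2.87, SE 0.575) and Itgb5 (-2.49, SE 0.39) were also lower, again with tumor 7 the highest tumor. Dock1, the exchange factor that works with Elmo downstream of Adgrb1, went from 1319 ± 283 to 317.5 ± 171 (-2.21, SE 0.34, limma adjusted p = 8.30e-05). Summed endothelial and leukocyte markers were likewise lower in tumors and highest in tumor 7 (8693 and 14660), and their part in these differences was not tested.

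Of 23 other adhesion receptors tested, 9 were higher and 10 lower by limma, beside 31.4% and 30.1% of all genes, and 4 did not pass (Adgrd1, Adgrf3, Adgrg5 and Adgrg7), with a median log2 difference of -0.89. Adgrf1 was too low to be tested. Adgrg4, at 0 in every normal lung, is among the 9 called higher and reached the level for testing only through the tumors. Celsr3, a cadherin-type adhesion receptor of axon guidance, had the largest rise of the list, from 58.4 ± 11.8 to 7854 ± 2439 normalized counts (7.002, SE 0.24, limma adjusted p = 1.62e-10). Its relative Celsr2 rose by 2.78 (SE 0.29), Adgrv1, the very large receptor of hearing, by 3.46 (SE 0.37), and Adgrg2 by 1.63 (SE 0.32). Adgrl4, the fourth latrophilin by name and an endothelial receptor, was lower (-4.30, SE 0.39, limma adjusted p = 6.54e-07), at 3358, 3723, 3384, 3747 and 3665 in normal lungs and 62.0 to 353 in tumors. Adgrf5, a receptor of alveolar and endothelial cells that limits surfactant, went from 31706 ± 4430 to 728 ± 482 (-5.75, SE 0.44, limma adjusted p = 1.41e-07). Adgrg6 (-6.38, SE 0.94, or -5.63 without tumor 3) and the leukocyte receptor Adgre5 (-4.17, SE 0.37) were lower too.

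**Figure D4:**
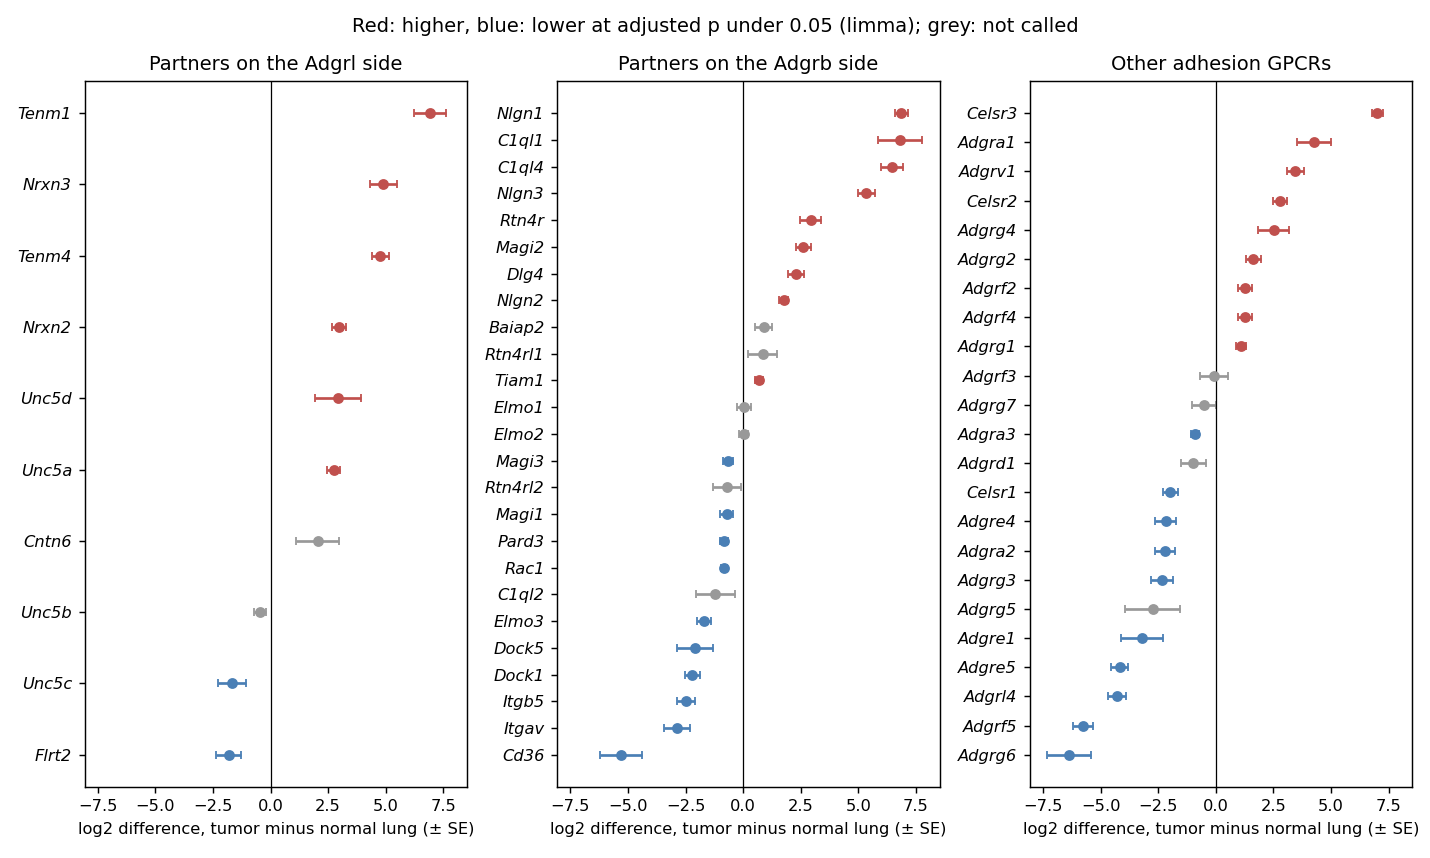
Points give the log2 difference of tumor minus normal lung on log2(normalized count + 1), with the SE as a bar, for partners on the Adgrl side (10 of the 11 genes), partners on the Adgrb side (25) and other adhesion receptors (23). Red and blue mark genes called higher and lower at a limma adjusted p under 0.05, grey those not called, and the whole lists have 7 higher and 2 lower, 9 and 10, and 9 and 10; the values of Tenm1, C1ql1, C1ql4 and Adgrg4, at or under 3 reads in every normal lung, depend on the pseudocount.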

How the data were processed

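Poly-A RNA was sequenced from 5 normal lungs and 7 tumors of mice. The authors deposited 1 signal per gene and library, gene counts divided by a library size factor; the submitters' processing notes name featureCounts, DESeq2 and GRCm39, without versions, and the aligner, annotation and use of strand are not given in the sources used here. The factors matched medians of ratios within 4.13e-10, and 100% of values gave whole reads within 0.01 reads.

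The deposited signal was tested as log2(value + 1) with limma 3.58.1 (trend) in R 4.3.3, over 23674 genes with a mean of at least 1, with Benjamini-Hochberg adjustment and a threshold of 0.05. The code was tested on simulated data. On recovered reads edgeR 4.0.16 called 11205 genes and DESeq2 1.42.0 called 13540. Both left out tumor 3 by a rule on steps near 1 (0.991 in tumor 3), although its values also gave whole reads. The edgeR and DESeq2 results thus differ from limma in the samples used as well as in the tool. Same-group libraries differed beyond sampling noise in the 25 pairs compared, which leave out tumor 3. Of 30399 IDs, 29982 had a symbol.

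The genes and lists were chosen with earlier results of these data known. From each list, up to 4 called genes per direction with the largest differences and no overlap were named, besides those picked later as stated, and some items are not reported here; for likeness, the 5 highest correlations with Adgrb3 among genes with a mean log2 level of at least 4. Replicate numbers follow accession order and pair nothing. A limit of 3 reads stands for a count of 0, for counting error only. Levels per kb use GENCODE M21 exon lengths on GRCm38, another build than the counts, and are approximate. Alternatives changed the pseudocount, filter, scaling, tool, treatment of same-numbered tumors and libraries used.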

Additional observations from a re-analysis of the deposited data

Results flagged for a closer look

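Of 60 groups examined, 4 held a sample that stood apart from the rest of its group, where chance gives about 1 in 20, here 3.0. Adgrl3 in normal lung 5 had a log2 level of 11.79 (normalized count 3535, others 1951 to 2203). Unc5c in tumor 2 had a log2 level of 3.93 (14.3, others 100.7 to 356.5). C1ql1 in tumor 1 had a log2 level of 2.26 (3.80, others 188 to 669.5). C1ql4 in normal lung 3 had a log2 level of 1.39 (1.61, where the other 4 normal lungs were at 0), which is a single read.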

How the results depend on the processing

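Of the 9 genes, 5 lay above and 2 below all normal lungs in each of 7 alternatives that give an overlap and in all 12 fits that leave out 1 library. The edgeR, DESeq2, correlated and covariate fits give none. Only equal column totals and quantile normalization could have undone a gap between the groups. A changed pseudocount or filter keeps the order of samples, and leaving out or averaging libraries cannot close a gap, so those fits are no check. The fitted Adgrb3 difference, which is no bound, was 13.67 with a pseudocount of 0.1, 12.99 in edgeR and 13.09 in DESeq2. The number of latrophilin-side genes called lower, 2, became 1 under equal column totals, 0 in edgeR, 0 in DESeq2 and 1 with Y-linked expression as a covariate, and 1 to 3 when a library was left out (1 without normal lung 1, 2 or 5). The numbers called higher and lower stayed at 8 to 11 and 7 to 10 on the Adgrb side, and at 8 to 9 and 9 to 12 among other adhesion receptors. Of 482 values of the 21 list genes chosen by the naming rule, 475 kept their call and direction, and the other 7 are those of Unc5c. Between trachea-titled and lung-titled tumors, DESeq2 called 300 genes and fits leaving out 1 tumor called 0 to 290, the latter without tumor 7; in those fits the difference ran from -1.10 to 0.24 for Adgrb1 and from -0.80 to 0.46 for Adgrl1, positive only without tumor 7. The causes were not tested. Equal column totals moved the median log2 difference of all genes from 0.04 to 0.23 and the calls from 7430 higher and 7124 lower to 8594 and 6129; no direction of the 9 genes turned. Labels give normal lung and tumor no shared replicate numbers to pair by. With the title number as a block (added after seeing the data, 2 residual degrees of freedom), 0 genes were called between trachea-titled and lung-titled tumors and 4454 had an unadjusted p under 0.05; the difference moved to -1.03 for Adgrl1, -0.69 for Adgrl3, 1.89 for Tenm2 and 0.57 for Tenm3. Other differences moved by over 1.5-fold and kept their call, among them Cd36 (-3.81), Adgrg6 (-4.92) and Itgav (-1.91) in edgeR. Cd36 (-3.90) and Adgrg6 (-5.01) did so in DESeq2, and Nrxn3 (3.70) and Adgrf5 (-6.34) with Y-linked expression as a covariate. Within the groups, that covariate mainly sets normal lung 3 and tumor 1 apart, so shifts under it rest largely on these libraries. With that covariate C1ql1 fell from 6.83 to 4.54, C1ql4 from 6.47 to 5.62 and the fitted Adgrb3 difference from 11.98 to 11.03. C1ql3, with few reads, went from -0.68 to -1.67. C1ql1 was 7.69 without the trachea-titled tumors. With a pseudocount of 0.1, in edgeR and in DESeq2, C1ql1 had 8.88 to 9.09, C1ql4 8.22 to 9.23 and Tenm1 8.64 to 9.15. Low counts limit C1ql3, Tenm2 and Adgrb1 to Adgrb3 in normal lung.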
